A study of Homo sapiens with 6 samples.

Results

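The heme synthesis enzymes examined here are 8 genes of the pathway, *ALAS1*, *ALAS2*, *ALAD*, *UROS*, *UROD*, *CPOX*, *PPOX* and *FECH*, together with *TMEM14C*, which encodes an inner mitochondrial membrane protein needed for porphyrin import in erythroid cells. These 9 genes were chosen by name from 62252 annotated genes and have 121 annotated transcripts. The step between ALAD and UROS was not analysed here. mRNA was measured in K562 cells, an established erythroid leukemia line, after overnight culture either with 10 µM 21H7, a cell-permeable iron chelator (Chelator, n = 3), or with an equal volume of its solvent DMSO (DMSO, n = 3). Both groups were unmodified cells of 1 line in the same serum-containing medium, so the only labelled difference was the chelator. All 9 genes passed the filter on low counts.

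Heme is built from glycine and succinyl-CoA. The first enzyme, ALAS, works in the mitochondrion and sets the rate. It has 2 genes, *ALAS1* in all tissues and *ALAS2* in erythroid cells. The intermediates then leave for the cytosol (ALAD to UROD) and return to the mitochondrion (CPOX, PPOX), where FECH, itself an iron-sulfur protein, inserts iron into protoporphyrin. The *ALAS2* mRNA carries an iron-responsive element (IRE), a stem-loop in its 5′ untranslated region to which iron regulatory proteins bind when iron is scarce, which blocks translation. The mRNA level measured here therefore need not follow the amount of enzyme.

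The IRE is shown because it is the part of the pathway's mRNA that is known to read iron. Capitals mark the unpaired C and the CAGTGN loop in 27 bases of transcript. The search, on the transcript strand of each annotated 5′ untranslated region, was for a C, any 5 bases, CAGTG and a last base other than G. The *ALAS2* match lies in exon 1, at chrX:55030942-55030968 on the minus strand of GRCh38, and the only other match among the 9 genes lies in the first exon of *UROS-203*, at chr10:125816513-125816539 on the minus strand. A match of letters does not show an element that is bound.
ALAS2 IRE: tcgttCgtcctCAGTGCagggcaacag
UROS-203: ttgctCtgtcgCAGTGCcctataagga

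The match was in 7 of 9 *ALAS2* transcripts, which held 96.5% to 100.0% of *ALAS2* TPM in the 6 libraries. TPM is a transcript level adjusted for transcript length and library size. Nearly all *ALAS2* mRNA quantified in both groups thus carried these letters. In *UROS*, 1 of 21 transcripts carried the match, with 25.8% to 28.2% of *UROS* TPM in DMSO and 34.2% to 38.6% in Chelator.

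Libraries held 78615500 to 90383641 estimated counts in DMSO and 85449857 to 101094957 in Chelator, of which the 9 genes took 0.0719% to 0.0893%. All 11 K562 markers reached 1 TPM in every group, fetal and embryonic globins included, and their summed level was 16963 to 18550 TPM in DMSO and 22530 to 24036 TPM in Chelator. *MS4A1*, *ELANE* and *PF4*, which mark B cells, neutrophils and megakaryocytes, were at 0 in all libraries, while of the epithelial pair *EPCAM* stood at 62.3 to 68.8 TPM in DMSO and 45.6 to 50.3 TPM in Chelator and *KRT19* at 77.5 to 86.7 TPM and 187 to 204 TPM (140 to 155 TPM and 233 to 255 TPM summed). The T cell pair, mainly *CD3D*, summed to 10.2 to 16.4 TPM and 39.4 to 41.1 TPM, and the monocyte pair, mainly *LYZ*, to 11.4 to 12.1 TPM and 17.3 to 19.7 TPM. Their part in the results was not tested. *TFRC*, the transferrin receptor, whose mRNA is stabilised when iron is low, stood at 227, 251 and 290 TPM in DMSO and 1814, 1976 and 2035 TPM in Chelator (log2 fold change 2.89, SE 0.10). The fragment lengths implied by Salmon's effective transcript lengths had medians of 252 to 264 bases in DMSO and 200 to 218 bases in Chelator, so the groups also differed in fragment length, and the effects of length and of chelation cannot be told apart. Nothing states that replicates were separate cultures, so p-values measure the spread between these libraries.

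In pathway order, mRNA of both *ALAS* genes rose with chelation, *ALAD* rose slightly, *UROS* and *UROD* did not pass the test, *CPOX* and *PPOX* rose, *TMEM14C* rose, and *FECH*, the step that uses iron, fell. *ALAS2* and *CPOX* doubled. Of the 9 genes, 6 passed higher and 1 passed lower at an adjusted p under 0.05 in DESeq2's Wald test (adjusted by Benjamini-Hochberg over 24542 genes), against 19.5% of all genes tested higher and 18.3% lower. Only *ALAS2* and *CPOX* also had a log2 fold change above 1, against 8.18% of all genes, and both lay at the threshold. The median log2 fold change was 0.36 for the 9 genes and 0.02 for all genes. Normalized counts did not overlap between groups for 5 genes higher in Chelator (25.5% of all genes) and for 1 lower (23.7% of all genes).

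**Figure D1:**
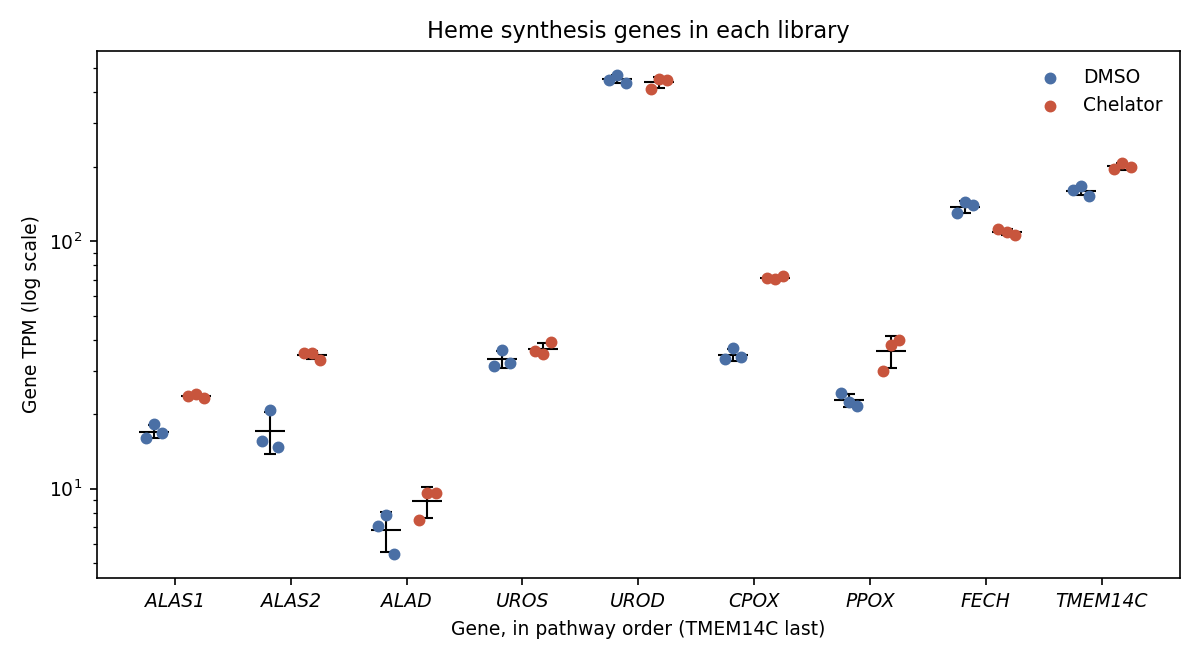
TPM of each heme synthesis gene (log axis) in the 3 DMSO and 3 Chelator libraries, with points for libraries and bars for mean ± SD. *ALAS2* and *CPOX* show the widest gaps between groups, *FECH* is lower in Chelator, and *ALAD*, *UROS* and *UROD* overlap.

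On the per-length TPM scale, *UROD* was the most abundant member and *ALAD* the least in both groups, with means of 452 ± 17.3 and 6.79 ± 1.23 TPM in DMSO (SD, n = 3). Between them, in DMSO, stood *TMEM14C*, *FECH*, *CPOX*, *UROS*, *PPOX*, *ALAS2* and *ALAS1*. Libraries of *CPOX* and *UROS* overlapped there, as did those of *ALAS2* and *ALAS1*. In Chelator the order of means was the same, but *CPOX* at 71.1 ± 0.92 TPM now stood clear of *UROS* at 36.8 ± 2.19 TPM, and *ALAS2* at 34.6 ± 1.31 TPM stood clear of *ALAS1* at 23.7 ± 0.51 TPM. *UROS*, *PPOX* and *ALAS2* overlapped with their neighbours in Chelator.

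The first step rose through both genes. *ALAS1* (ENSG00000023330.15, chr3:52198086-52214327, plus strand), the housekeeping synthase, measured 2620, 2495 and 2691 normalized counts in DMSO and 3653, 3527 and 3475 in Chelator. The groups did not overlap, and the rise was 1.37-fold (log2 fold change 0.45, SE 0.08, adjusted p = 5.20e-08). *ALAS2* (ENSG00000158578.21, chrX:55009055-55030977, minus strand), the erythroid synthase, measured 2080, 2334 and 1929 normalized counts in DMSO and 4456, 4212 and 4049 in Chelator. Every Chelator library lay far above every DMSO library, and the rise was 2.01-fold (log2 fold change 1.00, SE 0.09, adjusted p = 2.74e-25).

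The *ALAS2* share of the TPM of both synthase genes was 49.3%, 53.4% and 46.7% in DMSO and 59.9%, 59.4% and 58.8% in Chelator. By TPM the 2 genes were thus near parity in DMSO and *ALAS2* led in each Chelator library. By estimated counts, which are not adjusted for length, the *ALAS2* share was 43.0% to 45.3% in DMSO and 54.7% to 55.3% in Chelator. The share rose by 9.55 percentage points, with an exact two-sided permutation p of 0.1, the smallest that 3 against 3 libraries can give.

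The cytosolic steps showed small differences. *ALAD* (ENSG00000148218.16, chr9:113386312-113401290, minus strand), which condenses 2 molecules of aminolevulinate, measured 1255, 1175 and 953 normalized counts in DMSO and 1252, 1525 and 1572 in Chelator. The lowest Chelator library lay just under the highest DMSO library, although the rise passed the test (log2 fold change 0.36, SE 0.13, adjusted p = 0.02). It did not pass without DMSO replicate 3 (adjusted p = 0.154), without Chelator replicate 2 (adjusted p = 0.126) or without Chelator replicate 3 (adjusted p = 0.142), all by DESeq2. Counting changes of processing too, *ALAD* passed in 8 of 15 alternative runs.

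*UROS* (ENSG00000188690.15, chr10:125784980-125823258, minus strand), which closes the tetrapyrrole ring, measured 3246, 3168 and 3272 normalized counts in DMSO and 3529, 3240 and 3730 in Chelator. The groups overlapped and the difference did not pass (log2 fold change 0.12, 95% interval -0.05 to 0.28, adjusted p = 0.293 by DESeq2). *UROD* (ENSG00000126088.14, chr1:45010950-45015575, plus strand), which trims the side chains of the ring, measured 32359, 28773 and 31244 normalized counts in DMSO and 28462, 29345 and 29966 in Chelator. Here too the groups overlapped (log2 fold change -0.07, 95% interval -0.21 to 0.06, adjusted p = 0.452 by DESeq2). These intervals leave no room for a change of the size seen in *ALAS2*.

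The mitochondrial oxidases rose. *CPOX* (ENSG00000080819.9, chr3:98579446-98593648, minus strand), which makes protoporphyrinogen, measured 4861, 4546 and 4880 normalized counts in DMSO and 9813, 9161 and 9670 in Chelator. Replicates were close and the groups far apart, a 2.0-fold rise (log2 fold change 1.00, SE 0.07, adjusted p = 4.36e-43). *PPOX* (ENSG00000143224.18, chr1:161166056-161178013, plus strand), which oxidises that product to protoporphyrin, measured 2509, 1952 and 2188 normalized counts in DMSO and 2934, 3506 and 3800 in Chelator. The groups did not overlap (1.54-fold, log2 fold change 0.62, SE 0.12, adjusted p = 1.32e-06). Of the 31-base words in *PPOX* transcripts, 22.9% also occur in other expressed genes, mostly *B4GALT3*, which overlaps it on the opposite strand and itself had a log2 fold change of -0.10. Whether strand was used in quantification is not given in the sources used here, so *PPOX* values are uncertain to that extent. The same share was 7.69% for *UROD*, mostly with *HECTD3* on the opposite strand, which itself fell (log2 fold change -0.47, adjusted p = 2.16e-11 by DESeq2), and whose part in the *UROD* value was not tested. It was 7.41% for *TMEM14C*, mostly with its paralog *TMEM14B*, and at most 3.99% for the other members.

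*FECH* (ENSG00000066926.13, chr18:57544377-57586732, minus strand), the ferrochelatase, went the other way. It measured 11815, 11122 and 12583 normalized counts in DMSO and 9689, 8850 and 8921 in Chelator. Every Chelator library was below every DMSO library (0.773-fold, log2 fold change -0.37, SE 0.08, adjusted p = 8.34e-06). *TMEM14C* (ENSG00000111843.14, chr6:10722915-10731129, plus strand) measured 9792, 8519 and 9140 normalized counts in DMSO and 11255, 11227 and 11147 in Chelator. Its groups did not overlap, and the rise was 1.23-fold (log2 fold change 0.29, SE 0.07, adjusted p = 3.30e-04).

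**Figure D2:**
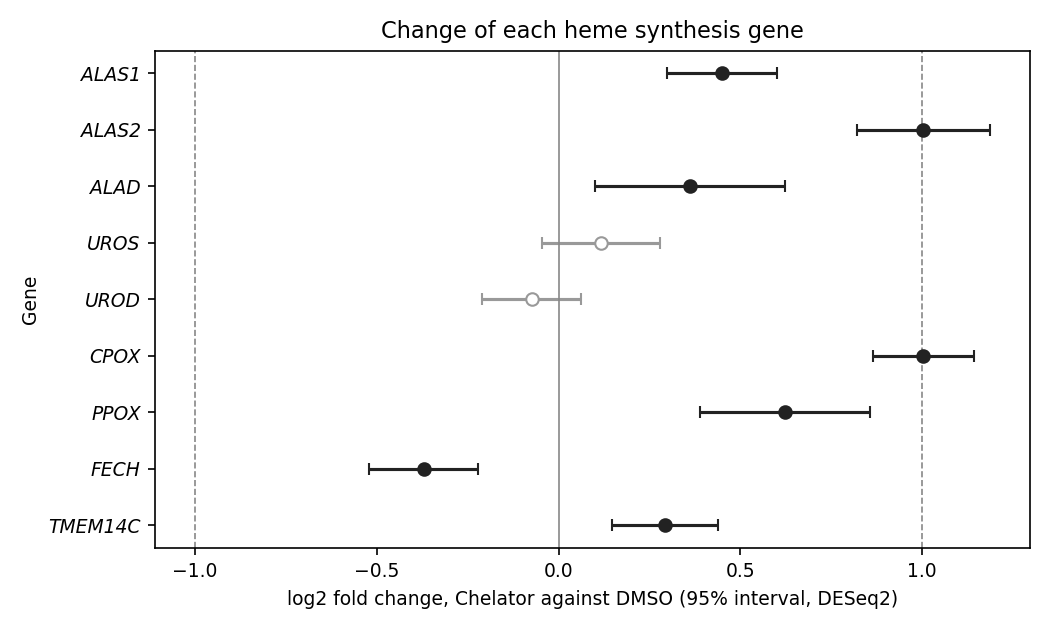
log2 fold change of each gene with its 95% interval from DESeq2, in pathway order. Filled points pass an adjusted p under 0.05 and dashed lines mark a log2 fold change of 1 in either direction. *ALAS2* and *CPOX* sit on the upper line and *FECH* alone passes below 0.

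The calls of *ALAS2* and *CPOX* past the fold threshold turned on small shifts. *ALAS2* fell below it without DMSO replicate 1 (0.99), DMSO replicate 3 (0.94) or Chelator replicate 1 (0.97), and *CPOX* without DMSO replicate 2 (0.97), Chelator replicate 1 (0.99) or Chelator replicate 3 (0.996). With trends in GC content and gene length removed, log2 fold changes were 0.24 for *ALAS1*, 0.75 for *ALAS2*, 0.92 for *CPOX*, 0.28 for *PPOX* and -0.72 for *FECH*. All 5 still passed. *ALAD* (0.19, adjusted p = 0.275 by DESeq2) and *TMEM14C* (0.14, adjusted p = 0.153) no longer passed. *UROD* passed lower at -0.38 and *UROS* turned to -0.19 without passing. In that setting 4 of the 9 genes passed higher and 2 lower, beside 3433 and 6283 of all 24037 genes.

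Over the 6 libraries, the genes whose log2 normalized counts most resembled *ALAS1* among 10341 genes were *MED8* (Pearson r = 0.9994), *RALB* (r = 0.9991) and *STX5* (r = 0.9991). For *ALAS2* they were *POFUT2* (r = 0.9982), *OGA* (r = 0.9982) and *ENSG00000267002* (r = 0.9977). Among the other members, *CPOX* was the most like both synthases (r = 0.993 with *ALAS1* and 0.973 with *ALAS2*). These values describe 6 points in 2 groups, so they mostly restate the difference between groups.

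Promoters of the 2 doubled genes and of *FECH* are shown as the 250 bases before the RefSeq start site (GRCh38.p14, all on the minus strand), to set the genes that rose most beside the one that fell. RefSeq promoters matched 8 of the 9 genes, all but *UROS*. Capitals mark matches on either strand to the GATA motif (AGATAA, also with T as its first or G as its last letter), the CACCC box and the core of the hypoxia response element (ACGTG or GCGTG). In *ALAS2* the adjoining CACCC matches share a base.
ALAS2 promoter, chrX:55030978-55031227: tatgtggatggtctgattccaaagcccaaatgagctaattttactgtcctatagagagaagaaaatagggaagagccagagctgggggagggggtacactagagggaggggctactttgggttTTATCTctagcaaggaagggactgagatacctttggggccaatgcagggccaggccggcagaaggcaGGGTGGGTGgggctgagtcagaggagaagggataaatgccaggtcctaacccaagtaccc
CPOX promoter, chr3:98593612-98593861: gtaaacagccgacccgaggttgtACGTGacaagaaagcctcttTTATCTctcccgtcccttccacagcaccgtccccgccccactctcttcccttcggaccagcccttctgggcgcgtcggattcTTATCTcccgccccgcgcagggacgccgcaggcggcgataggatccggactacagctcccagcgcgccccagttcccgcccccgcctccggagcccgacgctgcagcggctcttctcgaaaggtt
FECH promoter, chr18:57586703-57586952: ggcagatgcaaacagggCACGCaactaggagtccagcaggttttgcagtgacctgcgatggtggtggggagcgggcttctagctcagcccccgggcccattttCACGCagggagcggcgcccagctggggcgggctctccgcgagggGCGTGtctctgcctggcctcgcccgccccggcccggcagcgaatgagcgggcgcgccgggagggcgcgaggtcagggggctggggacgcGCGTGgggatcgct

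GATA matches, the motif of the erythroid factor GATA1, occurred once in *ALAS2*, at position -127 from the start site, and at 2 places in *CPOX*, at positions -207 and -125. Of 35116 promoters of the same length, 22.3% hold at least 1. A GATA match also lay in 1 window each of *ALAD*, at -68, and *PPOX*, at -63. The *FECH* window has none, nor do those of *ALAS1* and *TMEM14C*, which rose, and *UROD*, which did not pass. The *FECH* window holds 4 matches to the hypoxia core, of which 43.2% of all promoters hold at least 1. For *ALAD*, *PPOX* and *TMEM14C*, which rose, 1 window each holds 2. The 2 in *TMEM14C*, at -245 and -244, overlap as CACGTG read on both strands. *CPOX* has 1 hypoxia match and *ALAS2* none, whereas *ALAS2* has 2 CACCC matches, a motif in 54.7% of promoters. An *ALAD* window also holds 2 CACCC matches and a *PPOX* window 3. These are matches of letters and no binding was measured.

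Transcript usage was then compared within each gene. By edgeR's diffSpliceDGE, 0 of the 9 genes were called at an adjusted p under 0.05 with a share change above 5 percentage points, against 9.22% of all genes tested. At an unadjusted p under 0.05 there were 4. The share of all genes at that threshold was not counted, so the 4 cannot be judged against it. *UROD* had an adjusted p of 1.66e-05, but its largest share change was 4.34 percentage points. limma's diffSplice called 4 genes, *UROS* (adjusted p = 1.48e-05), *CPOX* (3.79e-04), *FECH* (8.51e-04) and *PPOX* (0.0499), against 26.7% of all genes by that tool. The calls thus depended on the tool. Without DMSO replicate 1, edgeR called *PPOX*. The features described next were picked after their values were seen and carry no test.

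In *FECH*, the share of *FECH-203*, in which exon 4 starts 63 bases early, inside intron 3, was higher in Chelator. An acceptor at this place is known from erythropoietic protoporphyria, a disorder of low FECH activity. Capitals mark the extension, followed by the first 20 bases of exon 4 (chr18:57571521-57571603, minus strand). Read in the frame of *FECH-203*, a TAA stop begins at base 20 of the extension, after 111 codons, and the annotation lists *FECH-203* as a target of nonsense-mediated decay, which destroys mRNAs with an early stop.
FECH-203: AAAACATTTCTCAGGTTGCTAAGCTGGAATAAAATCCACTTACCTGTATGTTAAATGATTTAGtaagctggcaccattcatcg

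Transcripts with the extension (*FECH-203*, *FECH-204* and *FECH-213*) measured 11.8, 12.6 and 12.2 TPM in DMSO and 14.6, 15.9 and 17.9 TPM in Chelator. Those with the usual exon 4 measured 115, 126 and 124 TPM in DMSO and 95.1, 90.5 and 86.7 TPM in Chelator. The extended form was thus higher in each Chelator library while the usual form was lower. Of the extended transcripts, *FECH-203* alone had a higher mean in Chelator (9.54 and 14.3 TPM), while *FECH-204* had means of 0.943 and 0.372 TPM and *FECH-213* of 1.73 and 1.44 TPM. The share of all extended transcripts in both forms was 9.36%, 9.08% and 8.94% in DMSO and 13.3%, 14.9% and 17.2% in Chelator, with no overlap. *FECH-203* itself held 6.90% ± 0.08 of all *FECH* TPM in DMSO and 13.2% ± 2.12 in Chelator (SD, n = 3), and had a usage adjusted p of 0.083 by edgeR.

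Most *FECH* TPM was assigned to 2 transcripts with no defined coding region. *FECH-205*, of 564 bases, held 58.9% ± 3.52 in DMSO and 54.9% ± 2.77 in Chelator, and *FECH-210*, of 2521 bases, held 23.8% ± 1.12 and 22.2% ± 1.08 (SD, n = 3). Annotated coding transcripts of *FECH* held 3.99% to 8.25% of its TPM. Summed over those alone, the log2 fold change of *FECH* was -0.18 with an adjusted p of 0.675 by DESeq2, so their sum did not pass the test. Among them *FECH-212*, with 13.6% of *FECH* counts in DMSO, measured 2.85, 3.18 and 2.82 TPM in DMSO and 2.33, 1.99 and 1.93 TPM in Chelator, lower in each Chelator library, while *FECH-202* overlapped, at 2.08 to 3.67 TPM and 1.19 to 4.395 TPM.

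In *CPOX*, the rise was larger for an incomplete transcript than for the coding one. *CPOX-203* ends inside intron 3 and is annotated as a retained intron. Capitals mark the 113 bases of intron 3 read into, after the last 20 bases of exon 3 (chr3:98590519-98590651, minus strand), and show where coding transcripts splice away.
CPOX-203: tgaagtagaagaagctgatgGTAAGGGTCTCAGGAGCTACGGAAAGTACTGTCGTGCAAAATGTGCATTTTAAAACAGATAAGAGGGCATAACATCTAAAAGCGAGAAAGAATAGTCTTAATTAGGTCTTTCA

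*CPOX-203* measured 4.61, 6.98 and 7.55 TPM in DMSO and 18.2, 19.6 and 22.7 TPM in Chelator. The coding *CPOX-204* measured 23.9, 24.9 and 22.3 TPM in DMSO and 40.5, 39.6 and 39.3 TPM in Chelator. Both forms were higher in each Chelator library. The *CPOX-203* share of both was 16.2%, 21.9% and 25.3% in DMSO and 31.05%, 33.1% and 36.6% in Chelator. Over the coding transcript alone the log2 fold change of *CPOX* was 0.77 (adjusted p = 5.47e-33 by DESeq2), below the fold threshold. *CPOX-202*, annotated for decay, held 12.2% ± 1.33 of *CPOX* TPM in DMSO and 11.98% ± 2.63 in Chelator.

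In *UROS*, whose total did not pass the test, the share of its start sites differed between groups, although edgeR's usage test did not call it (adjusted p = 1.0). Its upstream first exon (chr10:125823029-125823258) is known as the housekeeping start and the downstream one, used by *UROS-203*, as the erythroid start. Transcripts from the upstream exon measured 18.6, 20.7 and 19.0 TPM in DMSO and 16.5, 14.5 and 16.6 TPM in Chelator. Those from the downstream exon measured 9.13, 10.3 and 8.78 TPM in DMSO and 13.0, 14.02 and 15.8 TPM in Chelator. The groups did not overlap for either start, and they moved in opposite directions. The upstream share was 67.1%, 66.7% and 68.3% in DMSO and 56.0%, 50.9% and 51.2% in Chelator. Among single transcripts, *UROS-204* went from 47.3% ± 1.67 to 31.8% ± 7.19 of *UROS* TPM, *UROS-203* from 27.2% ± 1.24 to 36.8% ± 2.29, and *UROS-206* from 7.84% ± 0.12 to 10.4% ± 0.53 (SD, n = 3).

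In *ALAS1*, an optional exon of 177 bases in the 5′ untranslated region, exon 1B (chr3:52198672-52198848), was present in 41.0%, 40.1% and 45.7% of transcripts by TPM in DMSO and in 38.4%, 37.2% and 30.6% in Chelator. The groups came close but did not overlap. *ALAS1-204*, which lacks it, held 47.0% ± 3.54 and 51.3% ± 4.04, and *ALAS1-205*, which has it, 30.9% ± 2.41 and 24.8% ± 3.75 (SD, n = 3). *ALAS1-202* and *ALAS1-201* held about as much as each other, from 8.86% to 10.5%. In *ALAS2*, exon 4, a coding exon of 111 bases, was included in 52.4%, 55.9% and 56.9% of transcripts in DMSO and 53.3%, 49.6% and 52.2% in Chelator, with overlap, so the doubling was shared by both forms. *ALAS2-209* held 48.4% ± 7.58 and 46.9% ± 1.57 and *ALAS2-201* 36.1% ± 3.42 and 36.8% ± 4.36.

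**Figure D3:**
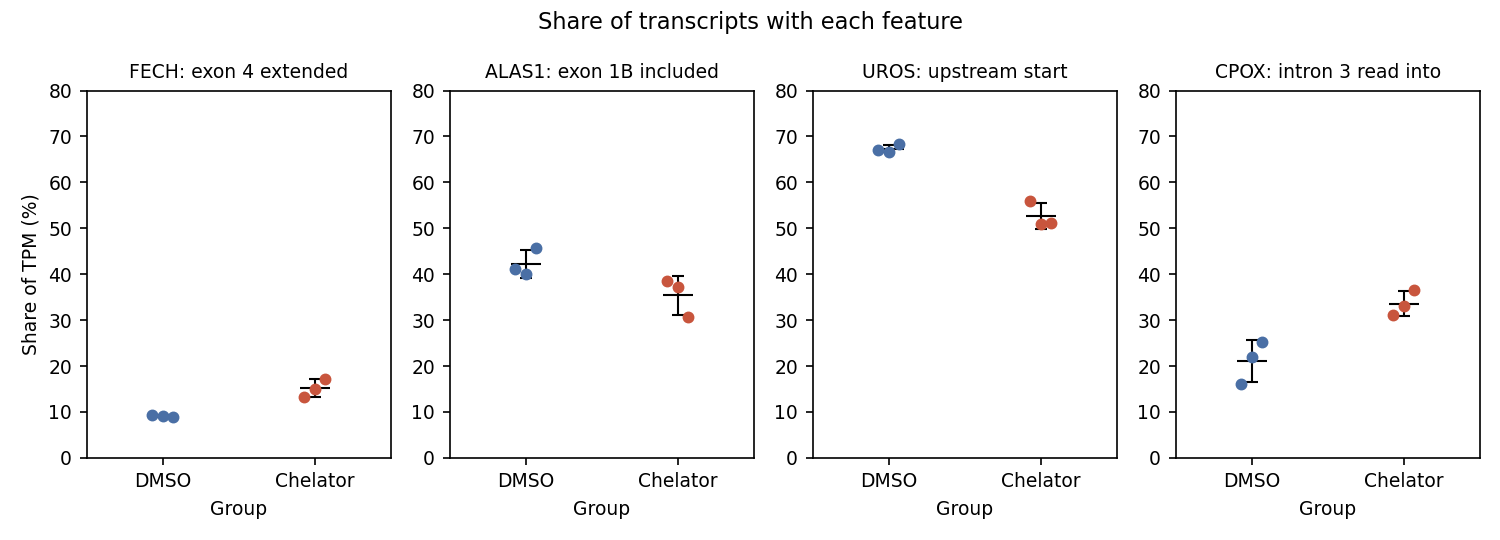
Share of TPM (%) of transcripts with each feature, out of transcripts with or without it, in 3 DMSO and 3 Chelator libraries (points, with mean ± SD). The *FECH* and *CPOX* shares are higher and the *ALAS1* and *UROS* shares lower in Chelator, with no overlap.

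In *UROD*, retained-intron transcripts held 12.3%, 12.5% and 12.7% of TPM in DMSO and 15.4%, 20.1% and 21.9% in Chelator, and *UROD-201*, the main coding form, 64.2% ± 0.85 and 59.9% ± 3.94. Its exon 7 was included in 99.2% ± 0.02 of transcripts in DMSO and 99.1% ± 0.24 in Chelator. *PPOX-202* went from 42.2% ± 6.09 to 31.1% ± 2.25 of *PPOX* TPM without overlap, *PPOX-227* from 1.59% ± 2.75 to 9.04% ± 2.59, also without overlap, and *PPOX-210* held 14.7% ± 1.19 and 12.5% ± 1.12. *ALAD-201* held 62.6% ± 9.65 and 54.7% ± 3.25, *ALAD-206* 10.5% ± 5.87 and 12.2% ± 0.16, while *ALAD-209* held 8.23% ± 1.42 and 15.4% ± 9.77. *TMEM14C-201* held 92.3% ± 0.24 and 94.0% ± 1.34 (SD, n = 3, DMSO first).

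The genes that supply, carry or regulate the pathway were examined as a list of 28 partners, of which 3 passed higher and 12 lower by DESeq2 (19.5% and 18.3% of all genes) among 27 with an adjusted p. With centring on the mean log2 change 2 passed higher and 14 lower, beside 3695 and 5489 of all 24542 genes. With GC and length trends removed 1 and 18 did, beside 3433 and 6283 of all 24037 genes. Their median log2 fold change was -0.11. Of 8 transporters, 1 passed higher and 2 lower, of 4 genes of substrate supply 1 and 1, and of 5 genes of ALAS turnover or FECH binding 1 and 2. Of 11 regulators of the *ALAS* genes, 0 passed higher and 7 lower.

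*SLC25A37*, mitoferrin-1, which brings iron into the mitochondrion, had the largest rise. It measured 14587, 14013 and 16053 normalized counts in DMSO and 29630, 30849 and 32518 in Chelator, with no overlap (log2 fold change 1.06, SE 0.08). It was the 1 partner past the fold threshold, and fell below it over coding transcripts alone (0.59), with centring on the mean log2 change (0.95), with no length offset (0.95) and with GC and length trends removed (0.94). *SHMT2*, which makes glycine in mitochondria, rose by 0.35 on the log2 scale (SE 0.08), and *LONP1*, a mitochondrial protease that degrades ALAS1, by 0.20 (SE 0.06). With GC and length trends removed, *SHMT2* no longer passed (0.08) and *LONP1* passed lower at -0.16 (adjusted p = 0.0214 by DESeq2).

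*KLF1*, an erythroid transcription factor, had the largest fall among the partners that passed. It measured 11237, 10632 and 11484 normalized counts in DMSO and 6528, 6714 and 7032 in Chelator, with no overlap (log2 fold change -0.72, SE 0.07, and -1.18 with GC and length trends removed). *PGRMC2*, a heme chaperone, fell by 0.53 on the log2 scale (SE 0.08). *FOXO1*, an activator of *ALAS1* in liver, fell by 0.67 (SE 0.26) at 99.2 to 263 normalized counts per library. Its fall did not pass in edgeR, nor without any 1 of DMSO replicates 1, 2 and 3 or Chelator replicates 2 and 3 (adjusted p from 0.0513 to 0.175 by DESeq2). *GATA1*, whose motif was searched above, had a log2 fold change of -0.13 and did not pass.

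**Figure D4:**
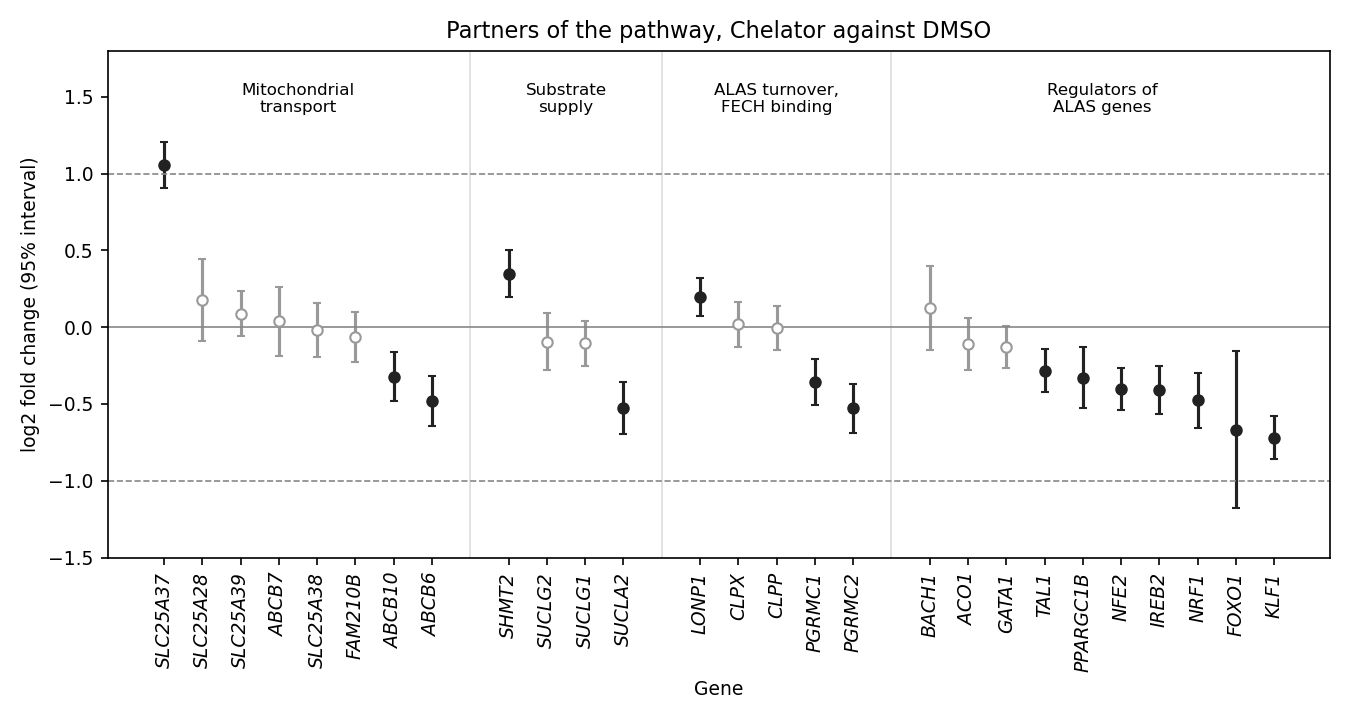
log2 fold change with 95% interval from DESeq2 for the 27 partners with an adjusted p, grouped by role. Filled points pass an adjusted p under 0.05 and dashed lines mark a log2 fold change of 1 in either direction. *SLC25A37* alone lies above the upper line, and every regulator that passes is below 0.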

How the data were processed

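Polyadenylated RNA of 6 K562 libraries was sequenced as paired-end Illumina reads. The authors quantified transcripts with Salmon (1.10.2, per the submitters' processing notes, which also name STAR 2.7.11b and build hg38), and deposited estimated counts and TPM per transcript. The transcript annotation and the counting of strand are not given in the sources used here. Identifiers were matched to GENCODE release 44 (251142 of 252045 transcripts with the same version, 470 with another, 433 unmatched and left out, at most 0.150% of counts).

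Estimated counts were summed per gene, rounded to whole numbers and kept above a total of 10. DESeq2 (1.42.0, R 4.3.3) compared Chelator with DMSO by its Wald test, with median-ratio size factors and the average transcript length as an offset, and normalized counts were scaled by both. Genes pass at a Benjamini-Hochberg adjusted p under 0.05 and are called with an absolute log2 fold change above 1 as well. Transcript usage was tested with edgeR (4.0.16) diffSpliceDGE on transcripts reaching 10 counts in 3 or more libraries, with limma (3.58.1) as the alternative. A single share was compared by an exact permutation test. The code was tested on simulated data.

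Named were all 9 members, their transcripts with at least 10% of TPM in either group, *TFRC*, the 3 genes most like each *ALAS* gene (mean normalized count of at least 500), and, as under 4 partners were called, the 3 largest rises and falls that passed. *GATA1*, *FECH-202*, *FECH-212*, *PPOX-227* and the features of transcripts were chosen after their values were seen. The members and lists were chosen with earlier results of these data known.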

Additional observations from a re-analysis of the deposited data

How the results depend on the processing

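Of the 9 genes, 7 passed, and 5 to 7 passed under every alternative run. The number past the fold threshold was 2, and 1 with no length offset (*CPOX* 0.86) or protein-coding transcripts alone, 0 with centring on the mean log2 change or with GC content and length trends removed, and 0 to 2 when 1 library was left out. Transcript usage called 0 members, 4 with limma diffSplice and 0 to 1 when 1 library was left out. Partners passing ranged from 14 to 19 (15 as reported). Over all genes 2646 were called, 2007 of them higher and 639 lower, against 1735 and 841 with centring and 1538 and 1100 with trends removed. Genes passing were 4774 higher and 4486 lower, against 3695 and 5489 with centring and 3433 and 6283 with trends removed. Those settings moved the median of all genes from 0.02 to -0.09 and -0.13, and the members' from 0.36 to 0.26 and 0.19. *ALAD* missed the threshold with centring (0.26), no offset (0.25) and trends removed (0.19), *TMEM14C* with centring (0.19) and trends removed (0.14), and *LONP1* with centring (0.10). *UROS* passed with no offset (0.19). With trends removed *UROS* (-0.19, not passing) and *LONP1* (-0.16, passing lower) reversed. The cause was not tested. Counted over members and 7 other named genes, 217 alternatives kept direction and side of the threshold, 19 no longer passed, 2 newly passed and 2 reversed. The *ALAS2* share rose by 8.02 to 11.3 percentage points under all alternatives.

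Replicate numbers are shared between groups. Same-numbered libraries deviated together by r of -0.07, 0.13 and 0.10 over 13492 genes, which does not settle whether the numbers pair the samples. With the replicate block 2345 genes were called, 6 members and 14 partners passed, *ALAD* had an adjusted p of 0.0507 and *FOXO1* 0.0513 by DESeq2, and 0 members were called for usage. Libraries of replicates 2 and 3 correlated best with their own number, and those of replicate 1 with replicate 3 of the other group.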
